A study of Mus musculus with 10 samples.

Results

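The genes described here carry iron into the red cell precursor, pass it to the mitochondrion, store it, export it and sense it. They were taken by name from the table of counts and are Tfrc, Tfr2, Steap3, Slc11a2, Slc25a37, Slc40a1, Ncoa4, Ireb2, Fth1 and Ftl1, which make 10 of its 53465 genes. All 10 passed the filter on low counts, as did 14110 genes in all. Expression was measured by RNA sequencing in erythroblasts from the spleens of C57BL/6 mice, 11 days after the mice received 5-FU, an antimetabolite used in chemotherapy that kills dividing marrow cells. The 4 genotypes were the double-null, which lacks both Nrf2 and the miR-144/451 microRNA cluster (n = 3), the Nrf2-null (n = 3), the miR-144/451-null (n = 2) and the wild type (n = 2). All mice had received 5-FU, so no group shows the spleen without the drug. The labels give neither the design of the null alleles nor which mouse each library came from, so the spread behind each p-value is that among libraries and may be technical. Only in double-null do counts of sex-linked genes settle part of this. They read replicate 3 as female and replicates 1 and 2 as male, so these libraries came from more than 1 mouse.

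A developing erythroblast takes up more iron than most other cells, because each haemoglobin chain holds a haem with an iron atom. Transferrin-bound iron enters by the transferrin receptor Tfrc into endosomes, where Steap3 reduces it and Slc11a2 (DMT1) carries it to the cytosol, and Slc25a37 (mitoferrin 1) carries it into the mitochondrion for haem synthesis. Ferritin, a shell of Fth1 and Ftl1 chains, stores what is not used, Ncoa4 delivers ferritin to the lysosome for release of its iron, and Slc40a1 (ferroportin) exports iron. Ireb2 (IRP2) is an RNA-binding protein that acts when iron is scarce: it binds stem-loops called iron-responsive elements (IREs), which protects Tfrc mRNA when they lie in its 3' UTR and blocks translation of ferritin mRNA when they lie in a 5' UTR. Tfr2 is a related receptor that senses transferrin saturation and, in erythroblasts, associates with the erythropoietin receptor. Nrf2 is a transcription factor that binds antioxidant response elements, and the ferritin genes are among its known targets.

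Libraries held 13087827 to 15131036 counts, of which globin genes took 7.07% to 12.2%. Mir144 had 0 counts in each double-null and miR-144/451-null library, while the Nrf2-null libraries had 9 to 16 and the wild type libraries 12 and 17. Mir451a had 0 counts in all 10 libraries, so its loss could not be checked. Nfe2l2, the gene of Nrf2, kept 46.0 to 62.6 CPM (the share of a library's counts, scaled with TMM factors) in the 6 libraries labelled as lacking it, against 58.1 to 86.0 CPM in the other 4, and whether its reads lie outside the deleted part is not given in the sources used here. The 10 erythroblast markers summed to 88068 to 156578 CPM and none was at 0 throughout. Of these Klf1 and Epor were lower in double-null against Nrf2-null at an adjusted p under 0.05. Among markers of other cells, all 6 B cell markers were lower in double-null against Nrf2-null, with sums of 83.5 to 146 CPM in double-null and 355 to 451 CPM in Nrf2-null, and of the 4 NK cell markers Gzma was lower. Of the 5 megakaryocyte markers Itga2b and Gp1bb were higher there and Gp9 lower, with sums of 123 to 166 CPM in double-null and 35.8 to 57.2 CPM in Nrf2-null. Most of each sum was Itga2b alone, at 114 to 153 CPM in double-null and 21.6 to 41.9 CPM in Nrf2-null. Gp1bb was near the floor, at 1.21 CPM or less in these libraries. The part of these cells in the results was not tested. Xist and Y-linked counts read double-null replicate 3 and the wild type pair as female and the other 7 libraries as male, so either single null against wild type cannot be told apart from males against females.

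IRE-like stem-loops of these transcripts are printed first, because it is by IREs that Ireb2 protein acts on other members of the set. UTRs of GENCODE M21 transcripts (build GRCm38) were searched for the loop CAGTGN, other than CAGTGG, with an unpaired C 6 bases before it and 5 bases between that pair with the 5 after the loop. Of the 10 genes 4 held such a stem-loop: Tfrc on chromosome 16 held 4 in its 3' UTR, and Slc40a1 on chromosome 1, Fth1 on chromosome 19 and Ftl1 on chromosome 7 each held 1 in the 5' UTR. Among all genes with a UTR, 0.11% held one in the 5' UTR and 0.475% in the 3' UTR. The rule is strict, and stems with a mismatch or a further bulge were not sought. A gene without a match here may thus still hold an IRE, and Tfrc may hold more than 4. Capitals mark the unpaired C and the loop.
Tfrc IRE 1: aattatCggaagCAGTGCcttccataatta
Tfrc IRE 2: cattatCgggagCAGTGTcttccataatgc
Tfrc IRE 3: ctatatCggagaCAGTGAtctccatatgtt
Tfrc IRE 4: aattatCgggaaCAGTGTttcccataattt
Slc40a1: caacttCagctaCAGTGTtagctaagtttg
Fth1: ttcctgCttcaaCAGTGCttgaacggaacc
Ftl1: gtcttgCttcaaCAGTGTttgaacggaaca
The bases between the unpaired C and the loop are the same in Fth1 and Ftl1.

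MicroRNAs of the cluster deleted in the double-null and the miR-144/451-null are shown next, from RefSeq (GRCm38.p6, chromosome 11), with the seed, bases 2 to 8, in capitals. Their seeds differ.
miR-144-3p: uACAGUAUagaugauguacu
miR-451a: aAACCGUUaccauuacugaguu
The 3' UTR of the transcript with the longest coding region was searched for the 7-base complement of each seed. Tfrc held 2 matches to miR-144-3p (ATACTGT) and Ireb2, on chromosome 9, held 3, against 10.8% of all genes with at least 1. No member held the miR-451a match (AACGGTT), which 1.57% of all genes held. The first Tfrc match begins 26 bases after the start of the first IRE loop, and each match is printed with its neighbouring bases.
Tfrc match 1: tatgacagttATACTGTcgttttcttt
Tfrc match 2: ttgccaacctATACTGTctttgctgaa
Ireb2 match 1: attttacgtgATACTGTaactcctgta
Ireb2 match 2: ctttgaaaccATACTGTgttctggtag
Ireb2 match 3: ctggacaatgATACTGTatttgatttg
A match is a stretch of letters and not a measured binding site.

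**Figure D1:**
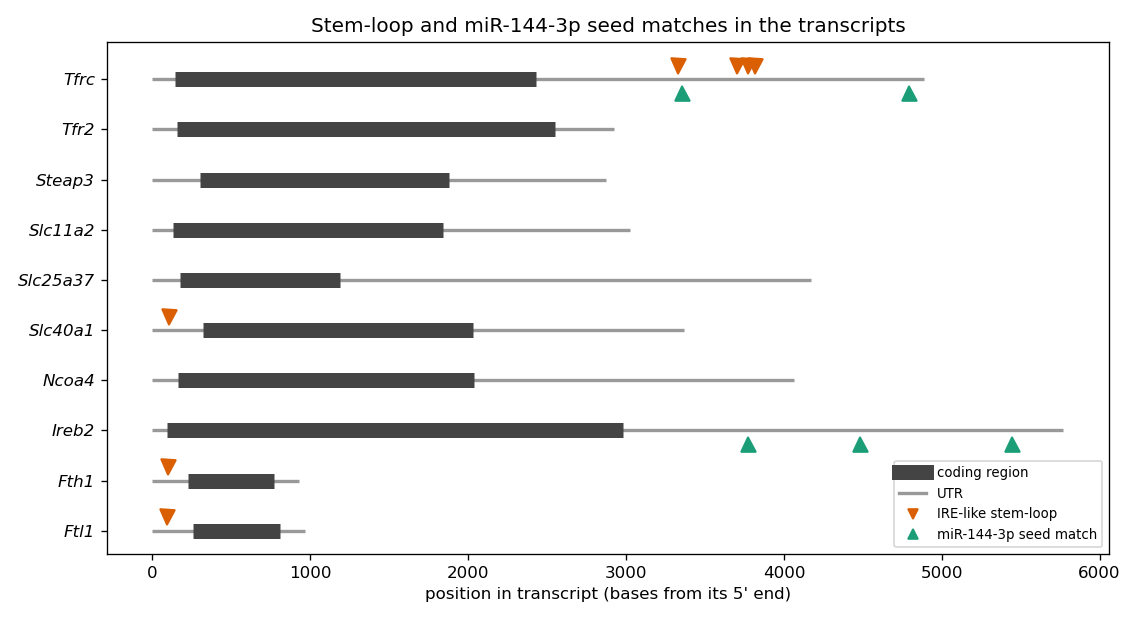
IRE-like stem-loops (triangles above the line) and miR-144-3p seed matches (triangles below the line) along 1 transcript of each iron gene, with positions in bases from the transcript's 5' end. Tfrc carried 4 stem-loops and 2 seed matches in its 3' UTR, Ireb2 carried 3 seed matches, and Slc40a1, Fth1 and Ftl1 each carried 1 stem-loop in the 5' UTR.

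Promoters from RefSeq, 250 bases before to 50 after a gene's start, were searched on both strands for the antioxidant response element TGACNNNGC, to which Nrf2 binds. The table held promoters for 7 of the 10 genes. Of these only Ncoa4, on chromosome 14, held a match, in 1 of its 3 promoters and 44 bases before the start, while 14% of all genes held one. It is printed with the match in capitals.
Ncoa4 promoter: gcggggcgTGACCTGGCcggtaggg
The lack of a match in these windows says nothing of elements elsewhere.

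The deposited FPKM, counts over a length fixed for each gene, put the members in nearly the same order in each library. That length is not the length of 1 transcript. For Ncoa4, Slc40a1 and Slc11a2 it is well above the 4065, 3370 and 3025 bases of the transcripts mapped above. The order between genes thus depends on the lengths used, and the order at other lengths was not tested. On the FPKM scale Fth1 was first in all 10 libraries, followed by Slc25a37, Tfrc and Ftl1. Fth1 had 2775, 2971 and 2843 FPKM in double-null, 2396, 2019 and 2216 in Nrf2-null, 3186 and 2789 in miR-144/451-null, and 2467 and 2587 in wild type. The ferritin light chain Ftl1 was far lower, at 80.8 to 123 FPKM in double-null, 81.0 to 92.2 in Nrf2-null, 122 and 142 in miR-144/451-null, and 92.0 and 137 in wild type. The Fth1 to Ftl1 ratio of FPKM was 18.9 to 34.3 over the 10 libraries. It is uncertain, because 57.7% of the 31-base words in Ftl1 transcripts also occur in other genes, mostly its pseudogenes, and reads from these cannot be told apart.

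The lower ranks in FPKM changed places between genotypes. Tfr2 stood above Slc11a2 in each of the 5 libraries that lack the cluster and below it in each of the other 5. Which of these genes ranks higher in a library depends on the lengths used. Steap3 was the lowest of the members in all 3 double-null libraries, at 7.02 to 7.26 FPKM, whereas Ireb2 was the lowest in the Nrf2-null and wild type libraries, at 7.87 to 9.98 FPKM. Together the 10 genes took 1.45% to 1.55% of all counts in double-null, 1.51% to 1.92% in Nrf2-null, 1.34% and 1.41% in miR-144/451-null and 1.58% and 1.86% in wild type.

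**Figure D2:**
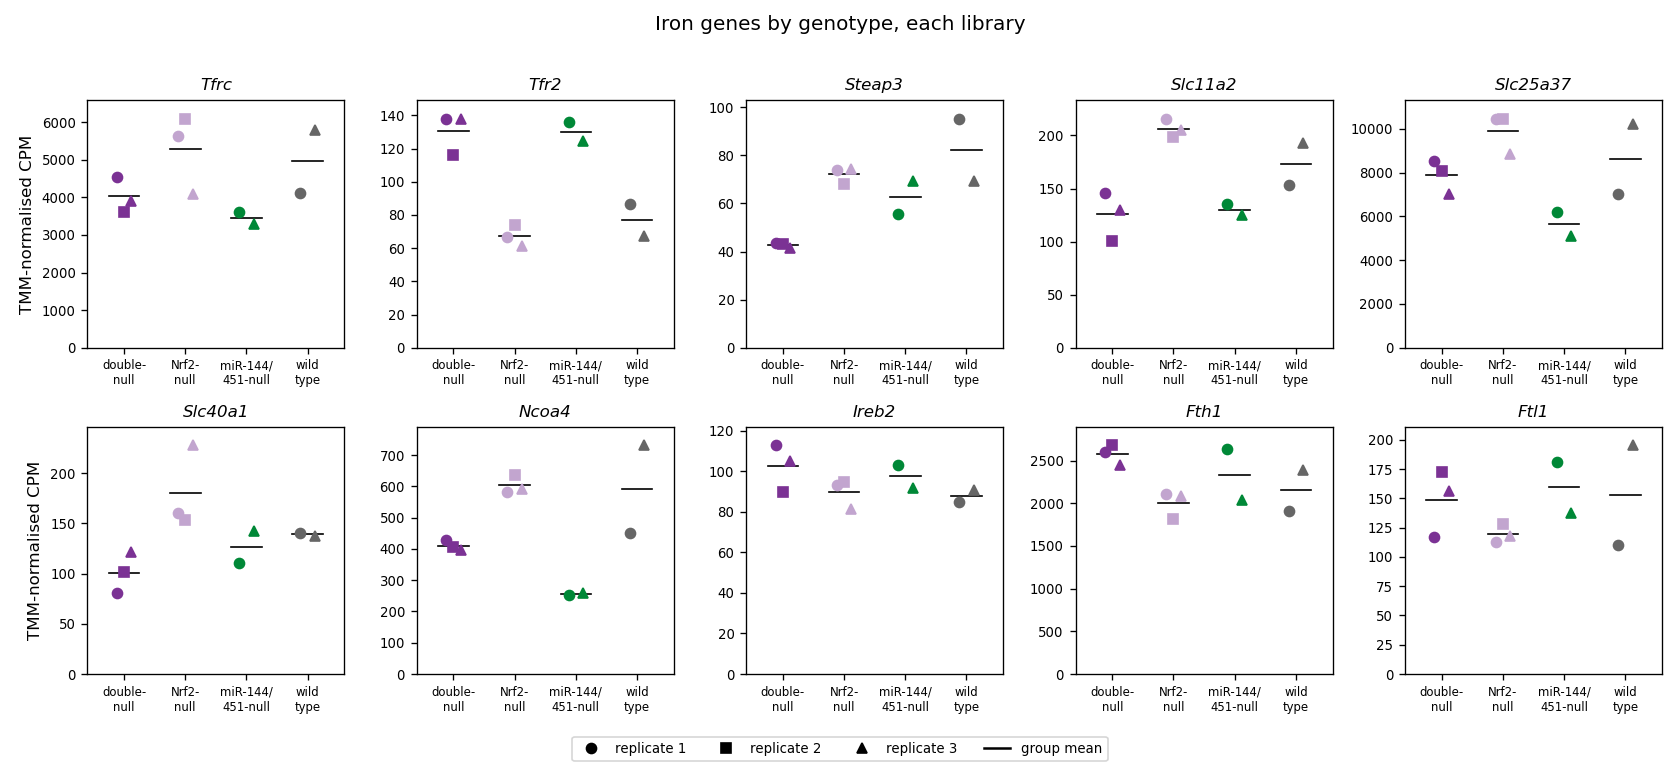
TMM-normalised CPM of each iron gene, with 1 point per library, the shape giving the replicate and the bar the mean of the genotype. Tfr2 lay at 116 CPM or more in each double-null and miR-144/451-null library and at 86.7 CPM or less in each Nrf2-null and wild type library, and Slc11a2 and Ncoa4 ran the other way.

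Loss of the cluster in erythroblasts without Nrf2 went with higher Tfr2 and with lower Steap3, Slc11a2, Slc40a1 and Ncoa4. That is 1 member higher and 4 lower of 10 in double-null against Nrf2-null at an edgeR adjusted p under 0.05, where 14.4% of the 14110 genes tested were called higher and 12.9% lower. The median log2 fold change of the 10 was -0.36, against 0.02 over all genes tested. With Nrf2 present, loss of the cluster (miR-144/451-null against wild type) called Tfr2 higher and Ncoa4 lower, where 2.4% of all genes were called higher and 2.23% lower, and the median of the 10 was -0.27 against 0.02 over all genes. These contrasts share no library, and all 10 genes had the same sign in both, as did 78.6% of all genes tested. In bulk RNA, fewer cells of a type and less RNA per cell cannot be told apart.

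**Figure D3:**
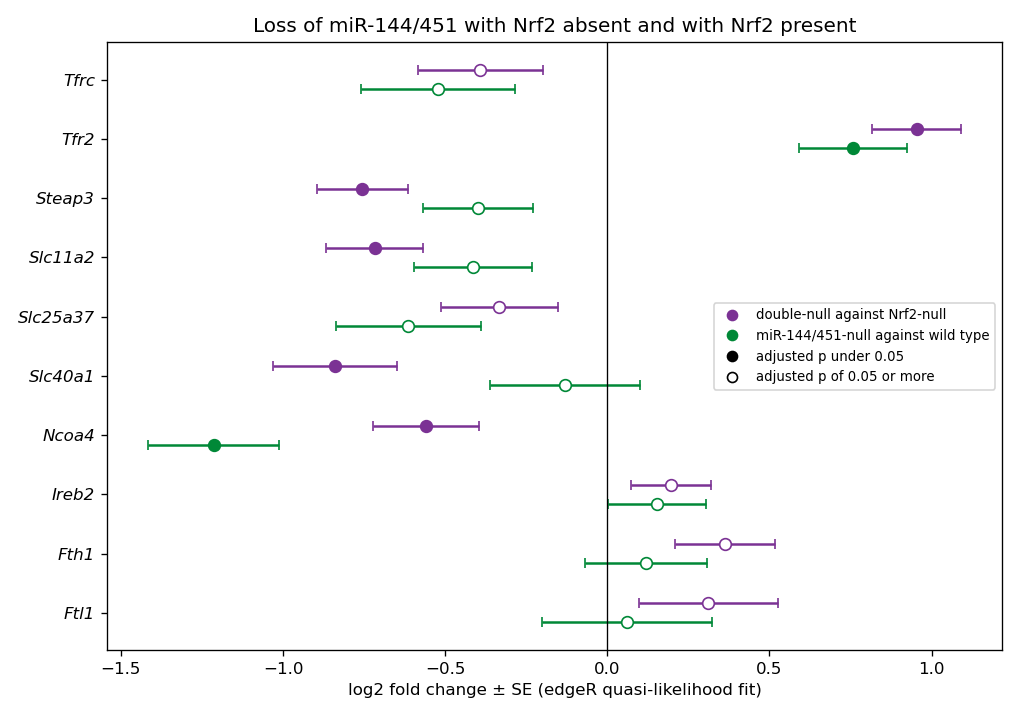
Log2 fold change ± SE of each iron gene on loss of the miR-144/451 cluster, for double-null against Nrf2-null (purple) and miR-144/451-null against wild type (green), with filled points at an adjusted p under 0.05. Tfr2 lies to the right of 0 in both, at 0.95 and 0.76, and Ncoa4 to the left, at -0.56 and -1.21.

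Of the 2 transferrin receptors, Tfr2 rose without the cluster and Tfrc did not pass the test. Tfr2 had 138, 116 and 138 CPM in double-null, against 67.0, 74.1 and 61.1 CPM in Nrf2-null. It had 136 and 124 CPM in miR-144/451-null, against 86.7 and 67.2 CPM in wild type. Every library without the cluster lay above every library with it, and neither pair of groups overlapped. The fold change was 0.95 ± 0.14 on the log2 scale (SE, adjusted p 0.000679) in double-null against Nrf2-null, and 0.76 ± 0.17 (adjusted p 0.0282) in miR-144/451-null against wild type. This Tfr2 call against wild type was lost when either wild type library, either miR-144/451-null library or Nrf2-null replicate 1 was left out (adjusted p 0.0564 to 0.218), in a fit of those genotypes alone (0.0974) and with a term for sex (0.291).

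Tfrc, the main receptor, had 4543, 3616 and 3909 CPM in double-null, against 5634, 6095 and 4101 CPM in Nrf2-null. It had 3612 and 3297 CPM in miR-144/451-null, against 4125 and 5791 CPM in wild type. Double-null and Nrf2-null overlapped, since double-null replicate 1 lay above Nrf2-null replicate 3, while both miR-144/451-null libraries lay below both wild type libraries. Neither difference passed the test, with a log2 fold change of -0.39 ± 0.19 (95% interval -0.82 to 0.03, adjusted p 0.155) in double-null against Nrf2-null and -0.52 ± 0.24 (adjusted p 0.272) in miR-144/451-null against wild type. Set against each other in FPKM, Tfrc was 19.9 to 23.1 times Tfr2 in double-null and 47.0 to 58.9 times in Nrf2-null. The ratio was 18.6 in both miR-144/451-null libraries and 33.4 and 60.4 in wild type, so all 5 libraries without the cluster lay below the other 5.

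Of the endosomal genes, Steap3, the ferrireductase, had 43.4, 43.2 and 41.4 CPM in double-null, against 74.1, 68.0 and 74.1 CPM in Nrf2-null. It had 55.7 and 69.3 CPM in miR-144/451-null, against 95.3 and 69.5 CPM in wild type. The 3 double-null libraries were close together and below all others. The log2 fold change was -0.76 ± 0.14 (adjusted p 0.00287) in double-null against Nrf2-null and -0.40 ± 0.17 (adjusted p 0.236) in miR-144/451-null against wild type, where the lowest wild type library lay just above the highest miR-144/451-null one.

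Slc11a2, the endosomal iron carrier, had 146, 101 and 129.8 CPM in double-null, against 216, 198 and 205 CPM in Nrf2-null. It had 135 and 125 CPM in miR-144/451-null, against 154 and 193 CPM in wild type. As with Tfr2, the 5 libraries without the cluster and the 5 with it did not overlap, but here those without the cluster lay below. The log2 fold change was -0.72 ± 0.15 (adjusted p 0.00525) in double-null against Nrf2-null and -0.41 ± 0.18 (adjusted p 0.253) in miR-144/451-null against wild type. Slc11a2 overlaps the gene Gm5475 on the other strand, and whether counting used strand is not given in the sources used here.

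Slc25a37, which brings iron to the mitochondrion, was among the most abundant members, and its wild type libraries lay further apart than those of any other genotype. It had 8521, 8091 and 7022 CPM in double-null, against 10449.9, 10473 and 8836 CPM in Nrf2-null. It had 6191 and 5084 CPM in miR-144/451-null, against 7032 and 10224 CPM in wild type. Neither pair of groups overlapped, yet neither difference passed the test: the log2 fold change was -0.33 ± 0.18 (95% interval -0.73 to 0.07, adjusted p 0.197) in double-null against Nrf2-null and -0.61 ± 0.22 (adjusted p 0.159) in miR-144/451-null against wild type. Within genotypes it varied with Tfrc and with Ncoa4, and against Steap3 and Slc40a1, with a Pearson r of 0.81, 0.78, -0.79 and -0.66 between deviations of log2 CPM from the genotype means over 10 libraries, which share depth and cell make-up. The late erythroblast and reticulocyte markers, 5 genes in all, summed to 39439 to 47002 CPM in double-null, 39385 to 46292 CPM in Nrf2-null, 32921 and 25699 CPM in miR-144/451-null, and 29356 and 45317 CPM in wild type. Most of each sum was Slc4a1 and Tmcc2, which moved apart in double-null against Nrf2-null. Tmcc2 was higher there, at 0.80 ± 0.23 on the log2 scale (edgeR adjusted p 0.0274). Slc4a1 and Epb42 were at -0.31 ± 0.19 and -0.44 ± 0.17 and did not pass (adjusted p 0.252 and 0.073). Alas2 and Bnip3l were at 0.02 and 0.12. Similar sums thus do not mean that each marker was unchanged. In wild type, replicate 3 had the higher sum and the higher Tfrc, Slc25a37 and Ncoa4. In double-null, Slc25a37 and Ncoa4 ranked the libraries as the sum did, while Tfrc did not. In miR-144/451-null, replicate 1 had the higher sum, Tfrc and Slc25a37 but the lower Ncoa4. In Nrf2-null, by contrast, replicate 3 had the highest sum and the lowest Tfrc and Slc25a37. The part of maturation stage in these values was not tested. Of the 31-base words of Slc25a37, 7.72% occur in other genes, and it overlaps 4 other annotated genes.

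The ferritin chains did not pass the test in any comparison of the TMM-scaled fit. Fth1 had 2602, 2685 and 2454 CPM in double-null, against 2110.2, 1817 and 2089 CPM in Nrf2-null, and the groups did not overlap. Its log2 fold change there was 0.36 ± 0.15 (95% interval 0.03 to 0.70, adjusted p 0.102), and 0.37 with an adjusted p of 0.0247 when no scaling factors were used. It had 2632 and 2043 CPM in miR-144/451-null, against 1914 and 2391 CPM in wild type, which overlapped, with a log2 fold change of 0.12 ± 0.19 (adjusted p 0.811). Ftl1 had 117, 172 and 156 CPM in double-null, against 113, 128 and 118 CPM in Nrf2-null, which overlapped, with a log2 fold change of 0.31 ± 0.21 (adjusted p 0.304). In miR-144/451-null it had 181 and 138 CPM, against 110.5 and 196 CPM in wild type, so that the wild type libraries lay on either side, and the log2 fold change was 0.06 ± 0.26 (adjusted p 0.944).

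Ncoa4, the cargo receptor of ferritin breakdown, was lower without the cluster, by an amount that depends on a pseudogene copy that shares part of its sequence. It had 429, 405 and 395 CPM in double-null, against 580.5, 637 and 592 CPM in Nrf2-null. It had 253 and 258 CPM in miR-144/451-null, against 452 and 733 CPM in wild type. No library without the cluster reached any library with it, and the miR-144/451-null libraries were the lowest of all. The log2 fold change was -0.56 ± 0.16 (adjusted p 0.0275) in double-null against Nrf2-null and -1.21 ± 0.20 (adjusted p 0.00921) in miR-144/451-null against wild type. In the double-null the call missed the threshold when any 1 of the 6 libraries compared was left out (adjusted p 0.0538 to 0.0893) and with a term for sex (0.0803). The call against wild type was lost without wild type replicate 3 or miR-144/451-null replicate 1 (adjusted p 0.066 and 0.0744), in a fit of those genotypes alone (0.0819) and with a term for sex (0.229).

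The copy is Gm6768, a processed pseudogene on chromosome 12 that holds 18.7% of the 31-base words of Ncoa4. Its counts were 21.0% to 22.7% of those of Ncoa4 in double-null, 22.0% to 22.7% in Nrf2-null, and 22.6% and 23.7% in wild type, but 83.4% and 46.4% in miR-144/451-null. In 8 libraries the ratio thus stayed within a narrow band, and both miR-144/451-null libraries stood above it. Ncoa4 and Gm6768 together had 526, 496 and 478 CPM in double-null, against 708, 780.4 and 727 CPM in Nrf2-null. The sum was 463 and 378 CPM in miR-144/451-null, against 559 and 898 CPM in wild type, and again no library without the cluster reached one with it.

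With the counts of Gm6768 added to Ncoa4, an alternative chosen after seeing the data, the log2 fold change in double-null against Nrf2-null was -0.56 ± 0.17 (adjusted p 0.0323). In miR-144/451-null against wild type it was -0.79 ± 0.21 and missed the threshold (adjusted p 0.0588). The difference between double-null and miR-144/451-null, 0.68 ± 0.19 for Ncoa4 alone, was 0.25 ± 0.19 for the sum (adjusted p 0.651). Gm6768 alone had a log2 fold change of -0.87 ± 0.23 in that contrast (adjusted p 0.262), opposite in sign to Ncoa4. Why the reads divided otherwise in the miR-144/451-null libraries was not tested.

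**Figure D4:**
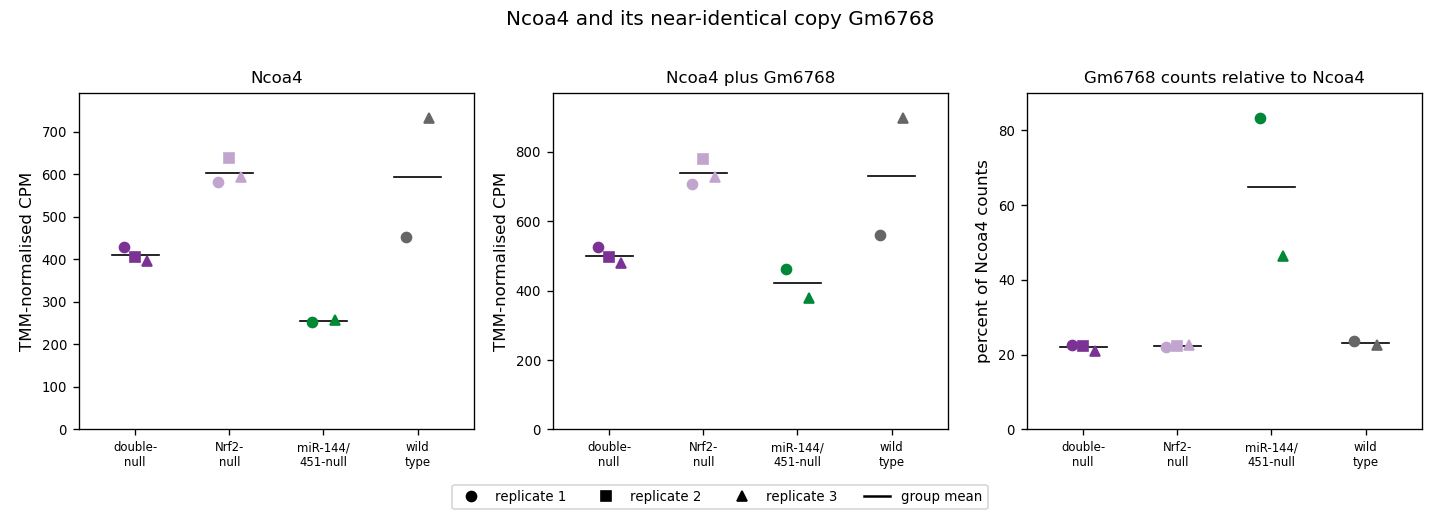
Ncoa4, the sum of Ncoa4 and Gm6768 (both in TMM-normalised CPM) and Gm6768 counts as a percentage of Ncoa4 counts, with 1 point per library and bars at genotype means. The percentage is 21.0 to 23.7 in 8 libraries and 46.4 and 83.4 in miR-144/451-null, and the gap between double-null and miR-144/451-null seen for Ncoa4 is narrower for the sum.

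In FPKM, the ferritin heavy chain Fth1 stood at 65.6 to 71.6 times Ncoa4 in double-null and 30.8 to 39.3 times in Nrf2-null. The size of this ratio depends on the long length used for Ncoa4, while its comparison between genotypes does not. The ratio was 113 and 85.6 in miR-144/451-null and 45.8 and 35.3 in wild type. With the counts of Gm6768 added at the length of Ncoa4, it was 53.5 to 58.6 in double-null, 25.2 to 32.2 in Nrf2-null, 61.4 and 58.5 in miR-144/451-null, and 37.0 and 28.8 in wild type. On that scale all 5 libraries without the cluster lay above all 5 with it, and the double-null and the miR-144/451-null were close.

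The exporter Slc40a1 had 80.3, 102 and 121 CPM in double-null, against 161, 153 and 228 CPM in Nrf2-null. It had 111 and 143 CPM in miR-144/451-null, against 141 and 138 CPM in wild type. Double-null and Nrf2-null did not overlap, while a miR-144/451-null library lay on each side of the wild type pair. The log2 fold change was -0.84 ± 0.19 (adjusted p 0.00821) in double-null against Nrf2-null and -0.13 ± 0.23 (95% interval -0.64 to 0.38, adjusted p 0.832) in miR-144/451-null against wild type. Between these effects the difference was -0.71 ± 0.30 with an unadjusted p of 0.0374, and did not pass the adjustment (adjusted p 0.999).

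Spleen macrophages also make much ferroportin, and their markers ranked the libraries as Slc40a1 did within each genotype, but not always between genotypes. The 12 markers summed to 90.6, 238 and 413 CPM in double-null, against 427, 348 and 1198 CPM in Nrf2-null, and to 156 and 283 CPM in miR-144/451-null, against 209 and 203 CPM in wild type. Nrf2-null replicate 3 was highest and double-null replicate 1 lowest in both Slc40a1 and the marker sum, and none of the 12 was at 0 in all libraries. In double-null against Nrf2-null their median log2 fold change was -1.39 and 0 of 12 passed the edgeR test, with 7 at an unadjusted p under 0.05 and 0 called by DESeq2. Without Nrf2-null replicate 3, Slc40a1 still passed, with a log2 fold change of -0.64 (adjusted p 0.0296). The part of macrophage RNA in the Slc40a1 result was not tested.

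**Figure D5:**
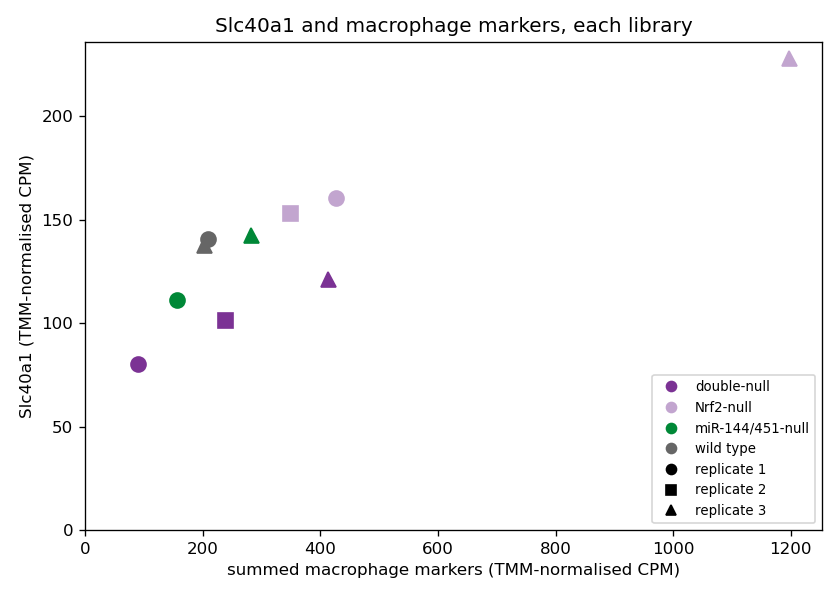
Slc40a1 against the sum of 12 macrophage markers in each library, both in TMM-normalised CPM, with colour for genotype and shape for replicate. Nrf2-null replicate 3 lies far to the right, at 1198 CPM of markers and 228 CPM of Slc40a1, and 2 of the 3 double-null libraries lie lowest on the Slc40a1 axis.

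Ireb2, the IRE-binding sensor, varied least of the 10, by 1.39 times between the highest and the lowest library. It had 113, 89.8 and 105 CPM in double-null, against 93.1, 94.5 and 81.2 CPM in Nrf2-null. It had 103 and 92.0 CPM in miR-144/451-null, against 84.8 and 90.7 CPM in wild type. Double-null and Nrf2-null overlapped, and the log2 fold changes were 0.20 ± 0.12 (95% interval -0.08 to 0.47, adjusted p 0.264) in double-null against Nrf2-null and 0.15 ± 0.15 (95% interval -0.18 to 0.49, adjusted p 0.671) in miR-144/451-null against wild type. Of the members with miR-144-3p seed matches, Ireb2 thus had positive and Tfrc negative log2 fold changes on loss of the cluster, and neither passed the test in either contrast.

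Loss of Nrf2 with the cluster present called no member. In Nrf2-null against wild type 0 of 10 passed the edgeR test, none had an unadjusted p under 0.05 and DESeq2 called none, while 0.128% of all genes were called higher and 0.0638% lower. The log2 fold changes ran from -0.35 ± 0.24 for Ftl1 (95% interval -0.88 to 0.17) to 0.38 ± 0.21 for Slc40a1 (-0.09 to 0.85). For Fth1, one of the textbook Nrf2 targets, it was -0.10 ± 0.17 (95% interval -0.48 to 0.27).

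Loss of Nrf2 in mice without the cluster likewise passed the edgeR test in 0 of 10 members, where 0.0496% of all genes were called higher and 0.0142% lower. In double-null against miR-144/451-null 3 had an unadjusted p under 0.05: Steap3 at -0.55 ± 0.15, Slc25a37 at 0.48 ± 0.21 and Ncoa4 at 0.68 ± 0.19, with adjusted p-values of 0.287, 0.448 and 0.272. DESeq2 called Ncoa4 alone (adjusted p 0.0471), the member whose counts divide otherwise with Gm6768 in miR-144/451-null. Tfr2 differed by 0.00 ± 0.15 (95% interval -0.33 to 0.34) and Fth1 by 0.14 ± 0.17 (-0.24 to 0.52). This contrast and Nrf2-null against wild type share no library, and 6 of 10 members had the same sign in both, against 64.5% of all genes.

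The effect of cluster loss was not shown to differ with Nrf2 for any member. The interaction called 0 of 10 genes by edgeR and by DESeq2, where 0.0283% of all genes were called positive and 0.0354% negative. Slc40a1 at -0.71 ± 0.30 and Ncoa4 at 0.66 ± 0.26 had unadjusted p-values of 0.0374 and 0.0275, and with Gm6768 added the Ncoa4 value was 0.23 ± 0.27. Tfr2 gave 0.20 ± 0.21 (95% interval -0.28 to 0.67).

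The double-null against wild type shares its libraries with the contrasts above and called Tfr2 higher and Steap3 lower, where 8.26% of all genes were called higher and 8.95% lower. Tfr2 differed by 0.76 ± 0.16 (adjusted p 0.0082) and Steap3 by -0.95 ± 0.15 (adjusted p 0.00287). The Tfr2 call was lost without wild type replicate 3 (adjusted p 0.0902) and with a term for sex (0.0513), at log2 fold changes of 0.60 and 0.84. Slc11a2 at -0.46 ± 0.16 (adjusted p 0.0767) and Ncoa4 at -0.53 ± 0.18 (adjusted p 0.0662) missed the threshold, and both passed it when no scaling factors were used. Fth1 differed by 0.26 ± 0.17 and Ftl1 by -0.04 ± 0.24, with adjusted p-values of 0.326 and 0.922.

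Other genes of the iron pathway, 64 tested genes in 7 lists, held few calls. In double-null against Nrf2-null 5 of 64 were called higher and 4 lower, which are smaller shares than the 14.4% and 12.9% over all genes, and the median of the 64 was 0.04 against 0.02 over all genes. The 5 with the smallest p were Nfu1, a late-acting iron-sulphur cluster factor, Slc39a8, a metal importer, Exoc6, an exocyst subunit needed for transferrin recycling, Isca1, also of iron-sulphur assembly, and Bach1, a haem-sensing repressor. Slc39a8 had 47.6, 43.5 and 55.1 CPM in double-null, against 28.1, 28.8 and 22.2 CPM in Nrf2-null, a log2 fold change of 0.88 ± 0.21 (adjusted p 0.011). Exoc6 had 137, 121 and 133 CPM in double-null, against 103, 92.7 and 78.6 CPM in Nrf2-null, with 0.51 ± 0.13 (adjusted p 0.0145).

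Slc39a8 and Exoc6 thus rose, and their groups did not overlap. Nfu1 rose by 0.97 ± 0.23 at low levels (11.5 to 19.4 CPM in double-null, against 6.42 to 9.16 CPM in Nrf2-null), Bach1 rose by 0.87 ± 0.26, and Isca1 fell by 0.68 on the log2 scale (SE 0.18). In double-null against wild type 3 of 64 were higher (Slc39a8, the mitochondrial porphyrin carrier Tmem14c and the autophagosome protein Map1lc3b) and 1 was lower, Cpox, again below the 8.26% and 8.95% over all genes. In miR-144/451-null against wild type 0 of 64 were higher and 1 lower, where 2.4% of all genes were called higher and 2.23% lower. It was again the haem synthesis enzyme Cpox, at -0.77 ± 0.17 (adjusted p 0.0289). DESeq2 called 4 of 64 in this contrast, 6 in double-null against wild type and 9 in double-null against Nrf2-null. Its shares over all genes are not set beside these counts. In Nrf2-null against wild type, in double-null against miR-144/451-null and in the interaction 0 of 64 passed by edgeR or by DESeq2, and 4, 7 and 0 had an unadjusted p under 0.05.

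The genes whose levels most resembled each member were taken from 8396 genes with a mean of at least 5 CPM, by Pearson r of log2 CPM over the 10 libraries, which share depth and cell make-up. Tfr2 was most like Sf3b2 (r 0.99), Prkcsh and Tdg, and Slc11a2 most like Ska1 (0.98), Tmx1 and Cnih4. Slc40a1 was most like Igf1 (0.98), Fcgrt and Abcg3, Ncoa4 most like Slc43a1 (0.98), Car2 and Chid1, and Slc25a37 most like Exoc3l (0.97). Fth1 was most like Slc22a23 (0.97), Steap3 like Smarcd2 (0.96), Tfrc like Tceal8 (0.95) and Ireb2 like Sec22b (0.94). Ftl1 had the weakest best match, Rnf115 at 0.89. Among the members, Slc25a37 and Ncoa4 were most alike, with r 0.92.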

How the data were processed

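RNA sequencing was done on 10 erythroblast libraries of 4 genotypes, which the labels number within a genotype. The authors deposited raw counts per Ensembl gene and, for each library, values that proved to be FPKM, each count over a length fixed for its gene and over the total of its library. Per the submitters' processing notes, the tools were TopHat2, HISAT2 2.1.0, Bowtie2 2.2.3 and CASAVA, on mm9. How reads were counted, by which annotation and with what use of strand, is not given in the sources used here. GENCODE M21 and RefSeq tables are of GRCm38, so no coordinates were carried over, and 99.6% of identifiers matched a symbol.

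All libraries entered 1 fit (R 4.3.3, edgeR 4.0.16): filterByExpr, TMM scaling, 1 coefficient per genotype, robust quasi-likelihood tests, two-sided, with 6 residual degrees of freedom and p-values adjusted by Benjamini-Hochberg over 14110 genes. SE is the log2 fold change divided by the root of F. Levels between genes are compared in FPKM, and so depend on the length fixed for each gene. Levels within a gene are compared in TMM-normalised CPM. The fit was tested on simulated data. No library repeated another: chi-square over its degrees of freedom was 17.3 to 30.4 between replicates. Of 13 pairs of libraries with the same number, 1 deviated together at r over 0.1, and numbers were not taken as pairs. In a genotype of 2 libraries the deviations mirror each other, so this check cannot settle whether numbers mark pairs. Alternatives were DESeq2 1.42.0, other scalings and filters, a block, a term for sex, globin removal, pseudogene counts and leaving out each library. All members are described, other pathway genes up to 5 per comparison by smallest p, and 3 most alike genes per member, with a prior count of 2. The members, lists and rules were chosen with earlier results of these data known.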

Additional observations from a re-analysis of the deposited data

How the results depend on the processing

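All 9 values of members called in the fit kept their sign under each alternative: of 176 such values, 155 stayed past the threshold. Of 984 values of uncalled members, 52 had the other sign and 7 passed the threshold. The 5 calls in double-null against Nrf2-null stayed at 4 to 6 throughout, and at 4 or 5 when a library was left out. In miR-144/451-null against wild type, 2 calls became 0 in a fit of those genotypes alone, 0 with a term for sex and 1 with Gm6768 added to Ncoa4, and ranged from 0 to 2 with 1 library left out. In double-null against wild type, 2 calls became 4 without scaling factors and 1 with a term for sex, and ranged from 1 to 3 with 1 library left out. In double-null against miR-144/451-null, 0 calls became 1 by DESeq2 and 1 with no filter on low counts, Ncoa4 both times. The cause of these changes was not tested, except that fewer libraries leave a less certain spread. Nrf2-null against wild type and the interaction stayed at 0 throughout. Leaving out the scaling factors moved the median of all genes by -0.21 in double-null against miR-144/451-null and by 0.12 where miR-144/451-null was set against wild type. Libraries with the same replicate number correlated at -0.11 to 0.29 in their deviations, with 1 of 13 pairs over 0.1, and a replicate block gave 5, 2, 2, 0, 0 and 0 calls in the order double-null against Nrf2-null, miR-144/451-null against wild type, double-null against wild type, then the other contrasts. The 2 libraries each of miR-144/451-null and wild type limit what their comparison can show. Ftl1 stays uncertain, because pseudogenes share its reads.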
